A study of Mus musculus with 9 samples.

Results

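The genes described here are the heat shock proteins and the DnaJ co-chaperones, 70 of the 19938 mouse genes measured. They were chosen by symbol: numbered Hspa, Hspb, Dnaja, Dnajb and Dnajc genes, Hsp90 genes, and Hspd1, Hspe1 and Hsph1. Earlier results of these data were known when this choice was made. A gene entered where a probe set named it and no other gene, and the brightest such probe set by its mean over the 9 arrays was used for it. They form 7 classes: 8 small heat shock proteins, 13 members of the HSP70 family with the related HSP110 proteins, 2 HSP90 proteins, 2 subunits of the mitochondrial chaperonin, and 4, 13 and 28 DnaJ proteins of classes A, B and C. Hspa1b is not among them because its probe set also names Hspa1a, and Hsp90ab1 was not analysed here.

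Total RNA from mouse brain tissue was hybridised to 9 Affymetrix gene arrays, 3 per group, and the study asks what peripheral amylin does to transcription in a mouse model of amyloid disease. The APP-amylin group was 5x FAD mice injected intraperitoneally with human amylin, a peptide hormone of the pancreas. The APP-PBS group was 5x FAD mice injected with phosphate-buffered saline (PBS), the vehicle, and the WT group was B6SJLF1/J wild-type mice that also received PBS. All mice were about 5 months old and were injected daily for 10 weeks. The 5x FAD line overexpresses mutant human APP in neurons under the Thy1 promoter and forms amyloid plaques. The labels call the 3 samples of a group biological replicates and do not say whether each is 1 animal or a pool. The series describes cortex, whereas the sample labels give brain tissues without a region.

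Molecular chaperones help proteins fold and keep damaged ones from clumping. HSP70 proteins bind and release short hydrophobic stretches as they split ATP. DnaJ proteins bring them substrates and speed up the splitting of ATP, HSP110 proteins exchange the nucleotide, and HSP90 takes over late folding steps for kinases and hormone receptors. Small heat shock proteins hold unfolded proteins without ATP, and the chaperonin encloses them in a chamber in mitochondria. Many of these genes are induced by heat shock factor 1 (HSF1) through heat shock elements in their promoters, and those of the endoplasmic reticulum (ER) by the unfolded protein response. In neurons HSP70 with its partners also uncoats clathrin vesicles and keeps synaptic proteins in shape, and chaperones are studied in brain disease because they act on aggregating proteins.

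Values are log2 intensities after robust multi-array averaging by the submitters, and the median of an array lay between 5.71 and 5.79. Differences are given on the log2 scale with the standard error (SE) of 1 limma fit over all 19938 genes, and genes with a Benjamini-Hochberg adjusted p under 0.05 are termed called. With 3 arrays a group the precision is limited, and the median SE was 0.070. In these bulk samples fewer cells of a type and less RNA per cell cannot be told apart. Marker genes of cell types and brain regions moved between APP-PBS and WT: 11 of 12 microglial and 11 of 11 striatal markers rose, and 10 of 12 hippocampal and 9 of 13 thalamic markers fell. Of the other lists, 1 of 10 astrocyte and 1 of 9 endothelial markers rose, 1 of 10 astrocyte, 1 of 9 oligodendrocyte and 3 of 9 excitatory neuron markers fell, 1 of 8 choroid plexus markers rose and 1 fell, and 0 of 10 inhibitory neuron and 0 of 2 blood markers changed. The mean of the microglial markers per array lay between 8.06 and 8.52 in APP-amylin, between 8.18 and 8.83 in APP-PBS and between 6.89 and 6.93 in WT. The mean of the striatal markers lay between 9.37 and 9.51 in APP-amylin, between 9.37 and 9.64 in APP-PBS and between 7.89 and 8.13 in WT. The hippocampal mean lay between 6.02 and 6.15 in APP-amylin, between 6.05 and 6.07 in APP-PBS and between 6.96 and 7.03 in WT, and the thalamic mean between 7.06 and 7.66, between 7.16 and 7.41 and between 7.90 and 8.20 in the same order of groups. Log2 intensities have no zero, so no marker can be said to be at 0, and excitatory neuron markers averaged between 10.59 and 10.89 on every array. The part of these cell type and region markers in the chaperone results was not tested.

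The first comparison sets 5x FAD mice against WT under vehicle. The region markers above differed between the same arrays, so the genotype and the tissue taken cannot be told apart in it, nor in APP-amylin against WT. In APP-PBS mice 3 of the 70 chaperone genes fell and 0 rose against WT, when 8.58% of all genes changed. Of all genes 3.66% changed upward and 4.92% downward. The 3 chaperone genes were Hspa12a, Hspa4l and Dnajc6. The 70 genes had a median difference of -0.0086 against -0.0099 for all genes, and 16 of 70 had an unadjusted p under 0.05, which is 22.9% against 21.2% of all genes. The arrays of APP-PBS and WT did not overlap for 25 of the 70 genes, 8 higher and 17 lower in APP-PBS, when 26.8% of all genes did not overlap, 11.2% higher and 15.6% lower. Called genes were thus a smaller share of the chaperones than of all genes, and genes without overlap a larger one, and these differences in share were not tested.

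The classes differed little in their medians, as the plot of differences by class shows. In the HSP70 and HSP110 class 10 of 13 genes had a lower mean in APP-PBS than in WT, 2 of them called, and the class median was -0.043. The 4 DnaJ A genes all had lower means in APP-PBS, between -0.155 and -0.0079, with none called. For Dnaja1 this holds for the probe set used, since a second probe set that names it alone gave 0.077 ± 0.066. Of 13 DnaJ B genes 9 had lower means (median -0.0079), and of 28 DnaJ C genes 13 did (median 0.0071), with 1 called. Small heat shock genes leaned the other way, 6 of 8 having a higher mean in APP-PBS (median 0.060), with none called. Several of them were dim, so these signs carry little weight. Hspb3, Hspb7, Hspb9 and Hspb11 had WT means of 5.23, 5.22, 5.78 and 5.46, near or below the array medians. For Hspb1 the sign holds for the probe set used, since a second probe set gave -0.00060 ± 0.057. The share of all genes with a lower mean in APP-PBS was 54.0%.

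**Figure D1:**
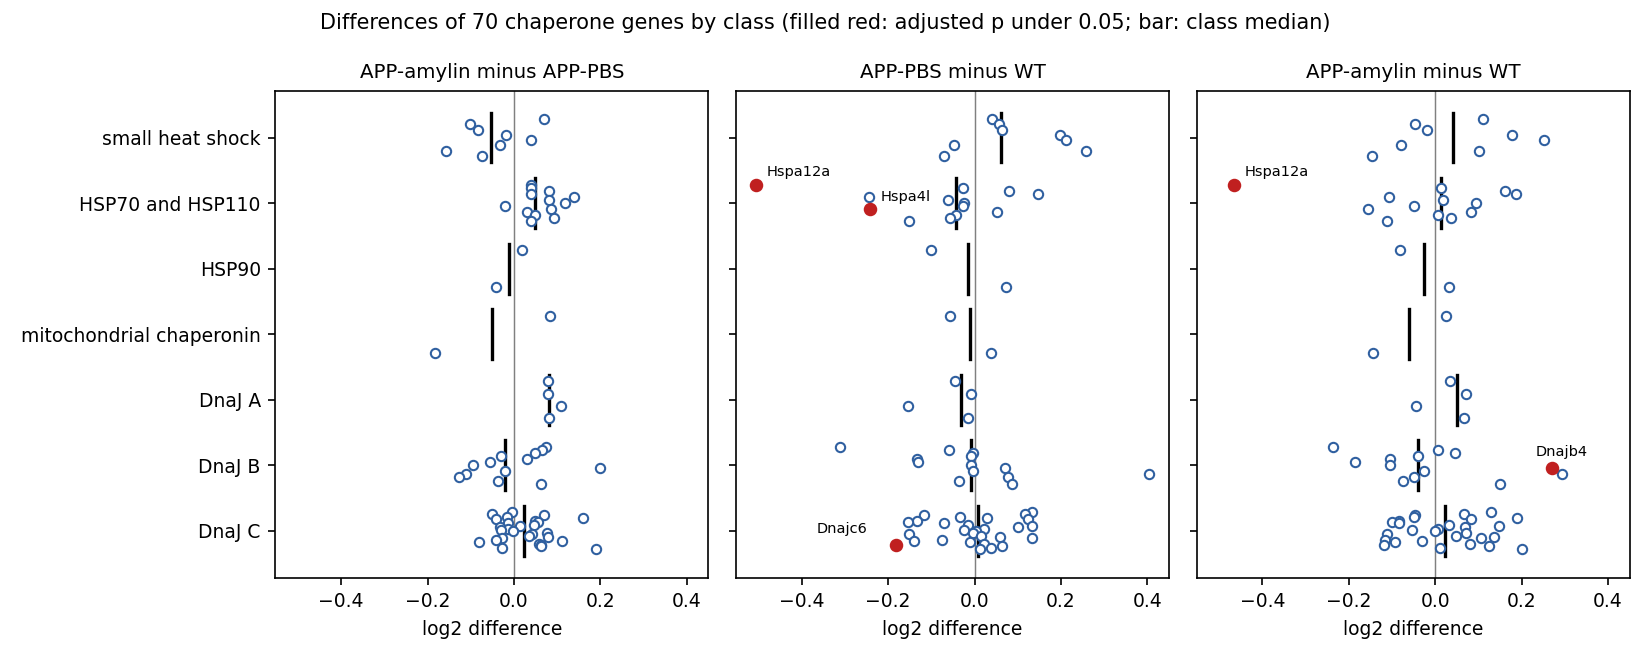
Log2 difference (x axis) of each of the 70 chaperone genes in the 3 comparisons, by class (rows). Open circles are genes that did not pass an adjusted p of 0.05, filled red circles are the genes that did, and black bars are class medians; APP-amylin and APP-PBS are compared in the left panel, which has no filled circle.

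Hspa12a, a divergent HSP70 relative that is abundant in brain, had the largest called difference of the 70. Its log2 intensity was 8.54, 8.84 and 8.72 in APP-amylin, 8.51, 8.84 and 8.63 in APP-PBS, and 9.18, 9.10 and 9.22 in WT. All 6 arrays from 5x FAD mice lay below all 3 WT arrays. The APP-PBS mean was 8.66 ± 0.17 against 9.17 ± 0.06 in WT (SD, n = 3 each), which is 0.704-fold and -0.51 ± 0.096 on the log2 scale (SE, limma adjusted p = 0.0116). Hspa4l, an HSP110 protein that serves HSP70 as a nucleotide exchange factor, had 9.89, 9.91 and 9.95 in APP-PBS against 10.14, 10.24 and 10.10 in WT. The groups did not overlap, and the difference was -0.24 ± 0.053 (limma adjusted p = 0.0214). On the APP-amylin arrays Hspa4l was at 9.95, 10.04 and 10.02, also below every WT array.

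Dnajc6 encodes auxilin, the neuronal J-domain protein that recruits Hsc70 to strip clathrin from synaptic vesicles. It had 10.50, 10.52 and 10.47 in APP-amylin, 10.38, 10.50 and 10.41 in APP-PBS, and 10.62, 10.60 and 10.62 in WT. Its difference between APP-PBS and WT was small, -0.18 ± 0.047, with no overlap of the arrays (limma adjusted p = 0.0445). The 3 calls were not equally firm. Without WT replicate 1 none of them passed, the adjusted p being 0.0502 for Hspa12a, 0.0632 for Hspa4l and 0.130 for Dnajc6. Each of the other 5 left-out arrays kept Hspa12a below 0.05, whereas Hspa4l passed only without WT replicate 3 and Dnajc6 only without APP-PBS replicate 2. Repeating the quantile normalization left Hspa12a alone below 0.05, with Hspa4l at 0.0525 and Dnajc6 at 0.108.

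**Figure D2:**
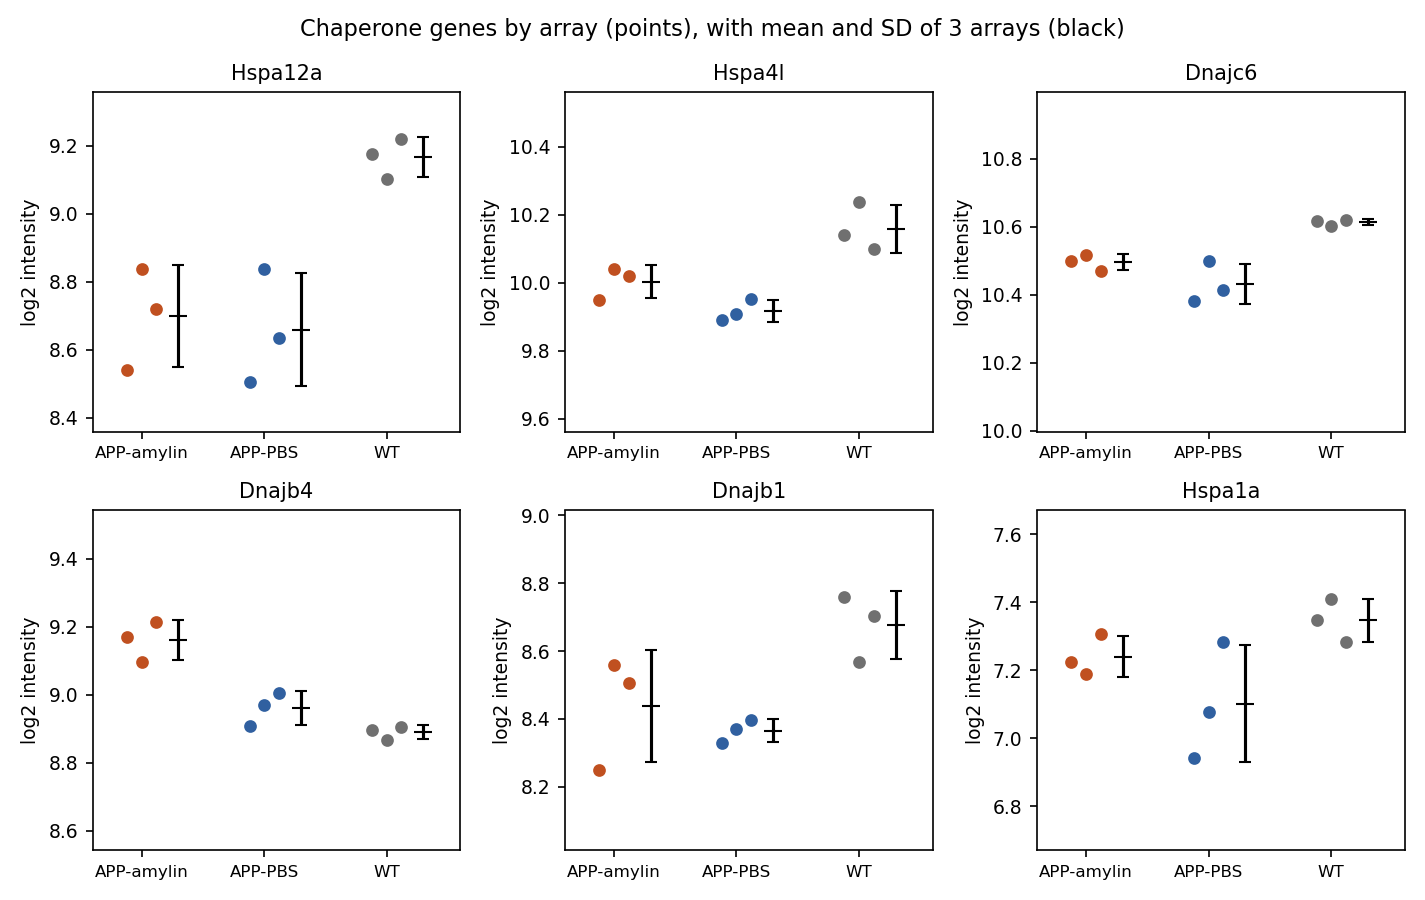
Log2 intensity (y axis, each panel spanning the same range of 1 log2 unit) of 6 chaperone genes on each array, with black marks for the mean and SD of the 3 arrays of a group. Hspa12a, Hspa4l and Dnajc6 lie lower on all APP-amylin and APP-PBS arrays than on WT arrays, and Dnajb4 lies higher on APP-amylin arrays than on both other groups.

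The J protein genes Dnajc5, Dnajb2 and Dnajc16 had lower means in APP-PBS than in WT, and none of them passed. Dnajc5, the cysteine string protein of synaptic vesicles, had 9.94, 9.87 and 9.86 in APP-amylin, 9.87, 9.70 and 9.77 in APP-PBS, and 9.92, 9.90 and 9.94 in WT. Its APP-PBS arrays lay below the WT arrays, with a difference of -0.14 ± 0.055 that did not pass (adjusted p = 0.175). Dnajb2, a J protein enriched in neurons that delivers clients to the proteasome, had 7.04, 7.20 and 7.19 in APP-amylin, 7.20, 7.18 and 7.20 in APP-PBS, and 7.41, 7.23 and 7.34 in WT, a difference of -0.13 ± 0.064 between APP-PBS and WT (adjusted p = 0.287). Dnajc16, an ER membrane J protein, was nearer to the threshold. It had 8.12, 8.11 and 8.08 in APP-amylin, 8.03, 8.09 and 8.03 in APP-PBS, and 8.18, 8.21 and 8.22 in WT. The APP-PBS and WT arrays did not overlap, and their difference was -0.15 ± 0.043 (adjusted p = 0.0593). It passed when the lowest 25% of genes were left out (adjusted p = 0.0480).

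None of the genes known to be strongly induced by HSF1 was called higher in APP-PBS than in WT. Dnajb1, the main stress-induced J partner of HSP70, had 8.25, 8.56 and 8.51 in APP-amylin, 8.33, 8.37 and 8.40 in APP-PBS, and 8.76, 8.57 and 8.70 in WT. All APP-PBS arrays lay below all WT arrays, and the difference of -0.31 ± 0.084 sat just outside the threshold (adjusted p = 0.0503). It passed under 7 of the 9 alternative fits that kept every array of both groups (adjusted p from 0.0210 to just under 0.05), and its adjusted p reached 0.188 when an array was left out. Hspa1a, the inducible HSP70, had 7.22, 7.19 and 7.31 in APP-amylin, 6.94, 7.08 and 7.28 in APP-PBS, and 7.35, 7.41 and 7.28 in WT. The WT and APP-PBS arrays touched for this gene, and the difference was -0.25 ± 0.083 (adjusted p = 0.113). The probe set that Hspa1a shares with its near-identical copy Hspa1b had 7.64, 7.78 and 7.77 in APP-PBS against 8.17, 8.06 and 8.0 in WT. These arrays did not overlap, and in a fit of all 35556 probe sets the difference was -0.35 ± 0.078 (adjusted p = 0.0511).

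Other inducible genes lay closer to WT. Hsph1, the inducible HSP110, had 10.17, 10.44 and 10.41 in APP-amylin, 10.19, 10.35 and 10.35 in APP-PBS, and 10.45, 10.51 and 10.39 in WT, a difference of -0.15 ± 0.080 between APP-PBS and WT (adjusted p = 0.336). Hsp90aa1, the inducible cytosolic HSP90, had 12.08, 12.19 and 12.25 in APP-amylin, 12.13, 12.18 and 12.15 in APP-PBS, and 12.22, 12.28 and 12.26 in WT. Its difference between APP-PBS and WT was -0.10 ± 0.054 (adjusted p = 0.340), and its 3 probe sets gave between -0.111 and -0.0873. Dnaja1, an abundant class A partner of HSP70, had 10.61, 10.75 and 10.87 in APP-amylin, 10.63, 10.69 and 10.67 in APP-PBS, and 10.65, 10.73 and 10.75 in WT. Its groups overlapped, and APP-PBS differed from WT by -0.046 ± 0.067 (adjusted p = 0.796). A second probe set that names Dnaja1 alone gave 0.077 ± 0.066, and the probe set it shares with Mir207 gave -0.12 ± 0.064. Hspb1, the inducible small heat shock protein HSP25 of mice, had 6.66, 6.57 and 6.67 in APP-amylin, 6.48, 6.55 and 6.66 in APP-PBS, and 6.57, 6.49 and 6.52 in WT, a difference of 0.041 ± 0.058 between APP-PBS and WT (adjusted p = 0.786).

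The promoters of the chaperone genes were searched for the HSF1 motif, because HSF1 is known to induce the inducible genes above. The RefSeq promoter table of build GRCm38.p6 held 57 of the 70 genes, and the 250 bases before each start were searched on both strands. The full heat shock element, taken as 3 alternating blocks of GAA and TTC with 2 bases of any kind between blocks, was found for 3 of 57 genes (5.26%), Dnajb6, Hspd1 and Hspe1, against 0.514% of all 27025 genes in the table (0.466% of its 32851 promoters). Its short form, GAANNTTC or TTCNNGAA, lies inside every full match and was found for 13 of 57 genes (22.8%), against 14.5% of all genes (12.8% of promoters). In both counts Hspd1 and Hspe1 have their matches in the same bases of 1 shared promoter, so they are not independent. Of the inducible genes above, Hspa1a, Hsph1, Dnaja1 and Hspb1 had only the short form. No match was found for Dnajb1 or Hsp90aa1, each of which had either no promoter in the table or none with the motif. Stretches with a short match, in capitals, follow from the inducible Hspa1a (chr17:34972217-34972296, minus strand) and from Dnajb4 (chr3:152193846-152193925, minus strand), which rose in APP-amylin against WT.
Hspa1a: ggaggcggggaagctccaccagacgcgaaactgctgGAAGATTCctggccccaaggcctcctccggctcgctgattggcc
Dnajb4: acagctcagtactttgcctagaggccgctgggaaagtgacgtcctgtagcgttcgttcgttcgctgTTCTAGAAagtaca
The 13 genes with the short form had differences between APP-PBS and WT from -0.246 to 0.405 (median 0.038), 6 of them below 0 and none called.

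Hspa8 encodes Hsc70, the constitutive HSP70 of neurons, and its 3 probe sets did not give the same result. The 1 that stood for the gene had 11.996, 12.17 and 12.19 in APP-amylin, 12.04, 12.09 and 12.08 in APP-PBS, and 12.11, 12.12 and 12.12 in WT. Its difference between APP-PBS and WT was -0.043 ± 0.058 (adjusted p = 0.773), and a second probe set gave -0.037 ± 0.066. The third had 12.15, 12.21 and 12.33 in APP-amylin, 11.07, 12.03 and 11.15 in APP-PBS, and 12.02, 12.06 and 12.12 in WT. On that probe set 2 of the 3 APP-PBS arrays lay almost 1 log2 unit below every other array, while APP-PBS replicate 2 lay with them. Its difference was -0.65 ± 0.22 for APP-PBS against WT (adjusted p = 0.175 over all probe sets) and 0.81 ± 0.22 for APP-amylin against APP-PBS (adjusted p = 0.739), comparisons that share the APP-PBS arrays. Probe sets that name Hspa8 with the small nucleolar RNAs Snord14c and Snord14d gave 0.25 ± 0.15 and 0.27 ± 0.15 between APP-PBS and WT. Processed copies of Hspa8 and of other abundant chaperone genes exist in the mouse genome, so which locus each probe set reads is uncertain. Among chaperone genes with a single probe set, probe set numbers run in blocks by chromosome. By number, the probe set used for Hspa8, a chromosome 9 gene, falls among those of chromosome 5 genes. The third falls beside those shared with Snord14c and Snord14d. The probe sets used for Hsp90aa1, Hspd1, Hspe1, Dnaja1 and Hspb1 also fall outside the numbers of their genes' chromosomes. Their positions on the genome were not tested.

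**Figure D3:**
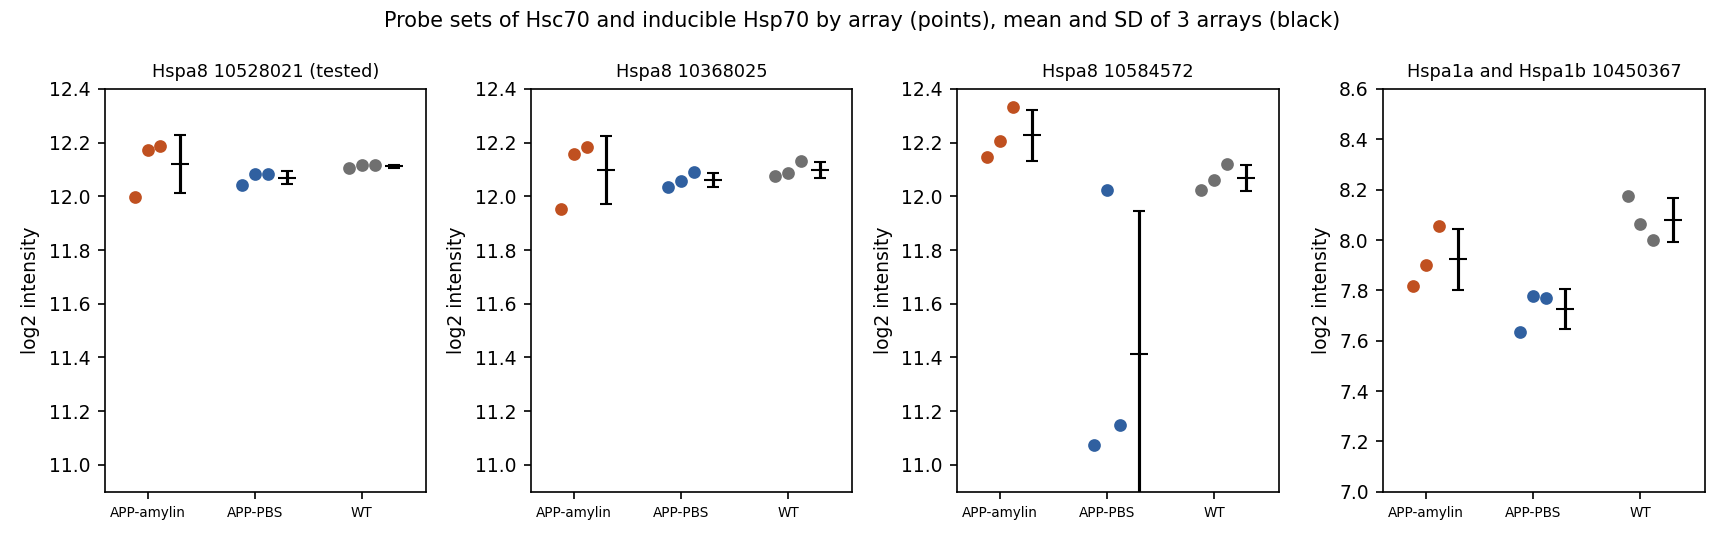
Log2 intensity (y axis) on each array of the 3 probe sets that name Hspa8 alone and of the probe set that names Hspa1a and Hspa1b, with black marks for the mean and SD of the 3 arrays of a group. The first pair of Hspa8 probe sets differs little across groups, whereas the third has APP-PBS arrays at 11.07 and 11.15 and 1 at 12.03.

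None of the ER chaperones among the 70 genes was called between APP-PBS and WT. Hspa5, the ER HSP70 known as BiP, had 10.78, 11.14 and 10.96 in APP-amylin, 10.82, 11.03 and 10.95 in APP-PBS, and 10.87, 10.91 and 10.86 in WT. The groups overlapped, and the APP-PBS difference of 0.052 had a 95% interval from -0.147 to 0.251. Hsp90b1, the ER HSP90 known as GRP94, had 10.94, 11.19 and 11.10 in APP-amylin, 11.10, 11.12 and 11.13 in APP-PBS, and 10.95, 11.12 and 11.07 in WT, a difference of 0.073 ± 0.070 between APP-PBS and WT (adjusted p = 0.649). Dnajc3, the ER J protein p58IPK that restrains the kinase PERK, differed by 0.059 ± 0.079 (adjusted p = 0.771). Its 2 probe sets held identical values and are 1 measurement. Dnajb9, a J partner of BiP that is strongly induced by ER stress, had 8.94, 9.13 and 9.35 in APP-amylin, 9.06, 9.06 and 9.10 in APP-PBS, and 8.98, 8.92 and 9.07 in WT, and the difference between APP-PBS and WT was 0.086 ± 0.091 (adjusted p = 0.688). Dnajb11, the J protein that hands secretory proteins to BiP, differed by -0.060 ± 0.086 (adjusted p = 0.790). Dnajc10, an ER disulfide reductase with a J domain, differed by 0.12 ± 0.052 and its arrays did not overlap (adjusted p = 0.230).

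The ER stress element, CCAAT and CCACG with 9 bases of any kind between, marked 3 of the 57 genes, exactly Hspa5, Hsp90b1 and Dnajc3, against 0.130% of all genes (0.113% of promoters), on either strand. The stretches are shown because these 3 genes, which belong to different classes, have the motif in common, with the motif in capitals and, for Hsp90b1, a second match read from the other strand. They lie at chr2:34771995-34772074 (plus strand) for Hspa5, chr10:86705533-86705656 (minus strand) for Hsp90b1 and chr14:118937797-118937876 (plus strand) for Dnajc3.
Hspa5: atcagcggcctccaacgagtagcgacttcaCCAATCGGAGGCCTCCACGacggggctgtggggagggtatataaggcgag
Hsp90b1: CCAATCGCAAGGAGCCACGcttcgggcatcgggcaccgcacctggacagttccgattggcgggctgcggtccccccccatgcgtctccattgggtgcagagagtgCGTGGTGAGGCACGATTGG
Dnajc3: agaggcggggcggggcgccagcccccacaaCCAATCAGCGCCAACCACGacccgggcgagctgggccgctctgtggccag
The 3 genes had differences between 0.052 and 0.073 for APP-PBS against WT, with 0 of 3 called. Among 27 other genes of ER folding and the unfolded protein response, 2 rose and 1 fell in APP-PBS against WT. Atf4, a transcription factor of the stress response to amino acid shortage and ER stress, had 8.38, 8.31 and 8.33 in APP-PBS against 8.09, 8.07 and 8.10 in WT, a difference of 0.25 ± 0.061 (limma adjusted p = 0.0332). Edem1, a lectin that sends misfolded glycoproteins to degradation, rose by 0.30 ± 0.073 (adjusted p = 0.0348), and Syvn1, the ubiquitin ligase of the same route, fell by 0.22 on the log2 scale (SE 0.055, adjusted p = 0.0361). The median of these 27 genes was -0.0075.

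None of the 8 small heat shock genes was called. Hspb8, which works with Bag3 in clearing aggregates, had 6.85, 7.25 and 7.05 in APP-amylin, 7.08, 7.38 and 7.15 in APP-PBS, and 7.08, 6.87 and 6.88 in WT. The groups overlapped by 1 array, and the difference between APP-PBS and WT was 0.26 ± 0.11 (adjusted p = 0.226). Hspb6, also called HSP20, had 7.66, 7.42 and 7.66 in APP-amylin, 7.58, 7.71 and 7.33 in APP-PBS, and 7.45, 7.31 and 7.22 in WT, a difference of 0.21 ± 0.11 between APP-PBS and WT (adjusted p = 0.303). Hspb3, best known from muscle, had 5.53, 5.40 and 5.30 in APP-amylin, 5.38, 5.48 and 5.43 in APP-PBS, and 5.21, 5.34 and 5.16 in WT. Its APP-PBS and WT arrays did not overlap and differed by 0.20 ± 0.071 (adjusted p = 0.142). The other 5 lay between -0.072 and 0.064, among them Hspb11, which despite its symbol is a part of the intraflagellar transport machinery. The related alpha-crystallins were measured outside the 70 genes, and Cryab, the small heat shock protein of glia and muscle, differed by -0.011 ± 0.099 between APP-PBS and WT. Of the 2 crystallins 0 changed.

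None of the mitochondrial chaperones was called between APP-PBS and WT. Hspd1, the HSP60 subunit of the chaperonin, had 9.73, 9.89 and 9.93 in APP-amylin, 9.76, 9.77 and 9.77 in APP-PBS, and 9.81, 9.83 and 9.83 in WT, a difference of -0.057 ± 0.056 (adjusted p = 0.655). Hspe1, its HSP10 lid, had 9.17, 9.72 and 9.88 in APP-amylin, 9.80, 9.67 and 9.85 in APP-PBS, and 9.69, 9.73 and 9.79 in WT. APP-amylin replicate 1 lay apart on this gene, and also on its second probe set at 9.20. Hspd1 and Hspe1 are transcribed in opposite directions from 1 shared promoter, so the stretch below, at chr1:55088028-55088107 on the plus strand of Hspe1, stands for both. Capitals mark its pair of overlapping heat shock elements.
Hspe1: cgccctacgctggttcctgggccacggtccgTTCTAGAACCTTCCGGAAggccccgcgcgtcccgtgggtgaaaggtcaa
Hspa9, the mitochondrial HSP70 known as mortalin, had 10.49, 10.38 and 10.38 in APP-amylin, 10.34, 10.35 and 10.28 in APP-PBS, and 10.38, 10.38 and 10.38 in WT, a difference of -0.056 ± 0.050 between APP-PBS and WT (adjusted p = 0.614). Dnaja3, its J partner in the matrix, had 8.40, 8.38 and 8.28 in APP-amylin, 8.25, 8.19 and 8.28 in APP-PBS, and 8.53, 8.35 and 8.31 in WT, and its APP-PBS and WT arrays differed by -0.15 ± 0.066, without overlap (adjusted p = 0.214). Of 9 further genes of mitochondrial folding and proteolysis 0 changed in any comparison.

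Dnajb6, a J protein that keeps polyglutamine proteins from aggregating, had the largest positive difference of the 70. It had 5.59, 5.36 and 5.30 in APP-amylin, 5.36, 5.62 and 5.60 in APP-PBS, and 4.89, 5.37 and 5.10 in WT. WT replicate 2 reached the APP-PBS range, and the difference of 0.40 ± 0.13 did not pass (adjusted p = 0.0864), although it did without that array (adjusted p = 0.0349). Probe sets that name Dnajb6 together with the predicted gene Gm4247 gave differences of only 0.030 to 0.043 between APP-PBS and WT (4 probe sets), so probe sets of Dnajb6 disagreed in size. They also differed in brightness. The probe set used averaged 5.53 in APP-PBS and 5.12 in WT, below the median of every array. The group means of the 4 shared probe sets lay between 10.20 and 10.65. The difference of 0.40 thus rests on a dim probe set and was not seen on the bright ones. Its promoter holds the full heat shock element, in capitals here, at chr5:29735819-29735898 on the plus strand.
Dnajb6: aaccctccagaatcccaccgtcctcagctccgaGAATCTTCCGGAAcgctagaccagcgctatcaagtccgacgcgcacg
Dnajc13, the endosomal J protein RME-8, was read by 15 probe sets. Of these 14 had a higher mean in APP-PBS than in WT. The 15 differences lay between -0.196 and 0.177 with a median of 0.11, and none passed over all probe sets (smallest adjusted p = 0.256). The probe sets of 1 gene share their RNA and are not independent.

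The second comparison asks what amylin changes in 5x FAD mice. None of the 70 genes was called between APP-amylin and APP-PBS, in a comparison where 1 gene of 19938 passed (0.00502%). Of the 70 genes 3 had an unadjusted p under 0.05, which is 4.29% against 6.9% of all genes. The arrays did not overlap for 5 genes, 4 higher and 1 lower in APP-amylin, when 9.3% of all genes did not overlap, 5.49% higher and 3.81% lower. The 70 estimates lay between -0.183 and 0.199, with a median of 0.040 against 0.00064 for all genes.

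The intervals give a range for the difference of each gene taken alone. They were not adjusted for the 70 genes, so they set no limit for the genes as a set. For 47 of the 70 genes the 95% interval of the difference lay within 0.25 log2 of 0, and for 69 it lay within 0.5, Hspe1 being the exception with an interval from -0.522 to 0.157. These counts hold for the probe set used for each gene. For the same comparison the third Hspa8 probe set gave 0.81 ± 0.22 and the second 0.037 ± 0.066, and those of Dnajc13 lay between 0.026 and 0.41. For Hspa12a, which fell in APP-PBS against WT, the interval for APP-amylin against APP-PBS was -0.174 to 0.255, and for Hspa4l it was -0.032 to 0.205. For Dnajc6 it was -0.042 to 0.169, around an estimate of 0.064. The means of all 3 were higher in APP-amylin than in APP-PBS by 0.040, 0.087 and 0.064, and none of these differences passed (adjusted p = 0.944, 0.785 and 0.810). The comparisons of APP-PBS with WT and of APP-amylin with APP-PBS share the APP-PBS arrays, so opposite signs in them are not independent.

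**Figure D4:**
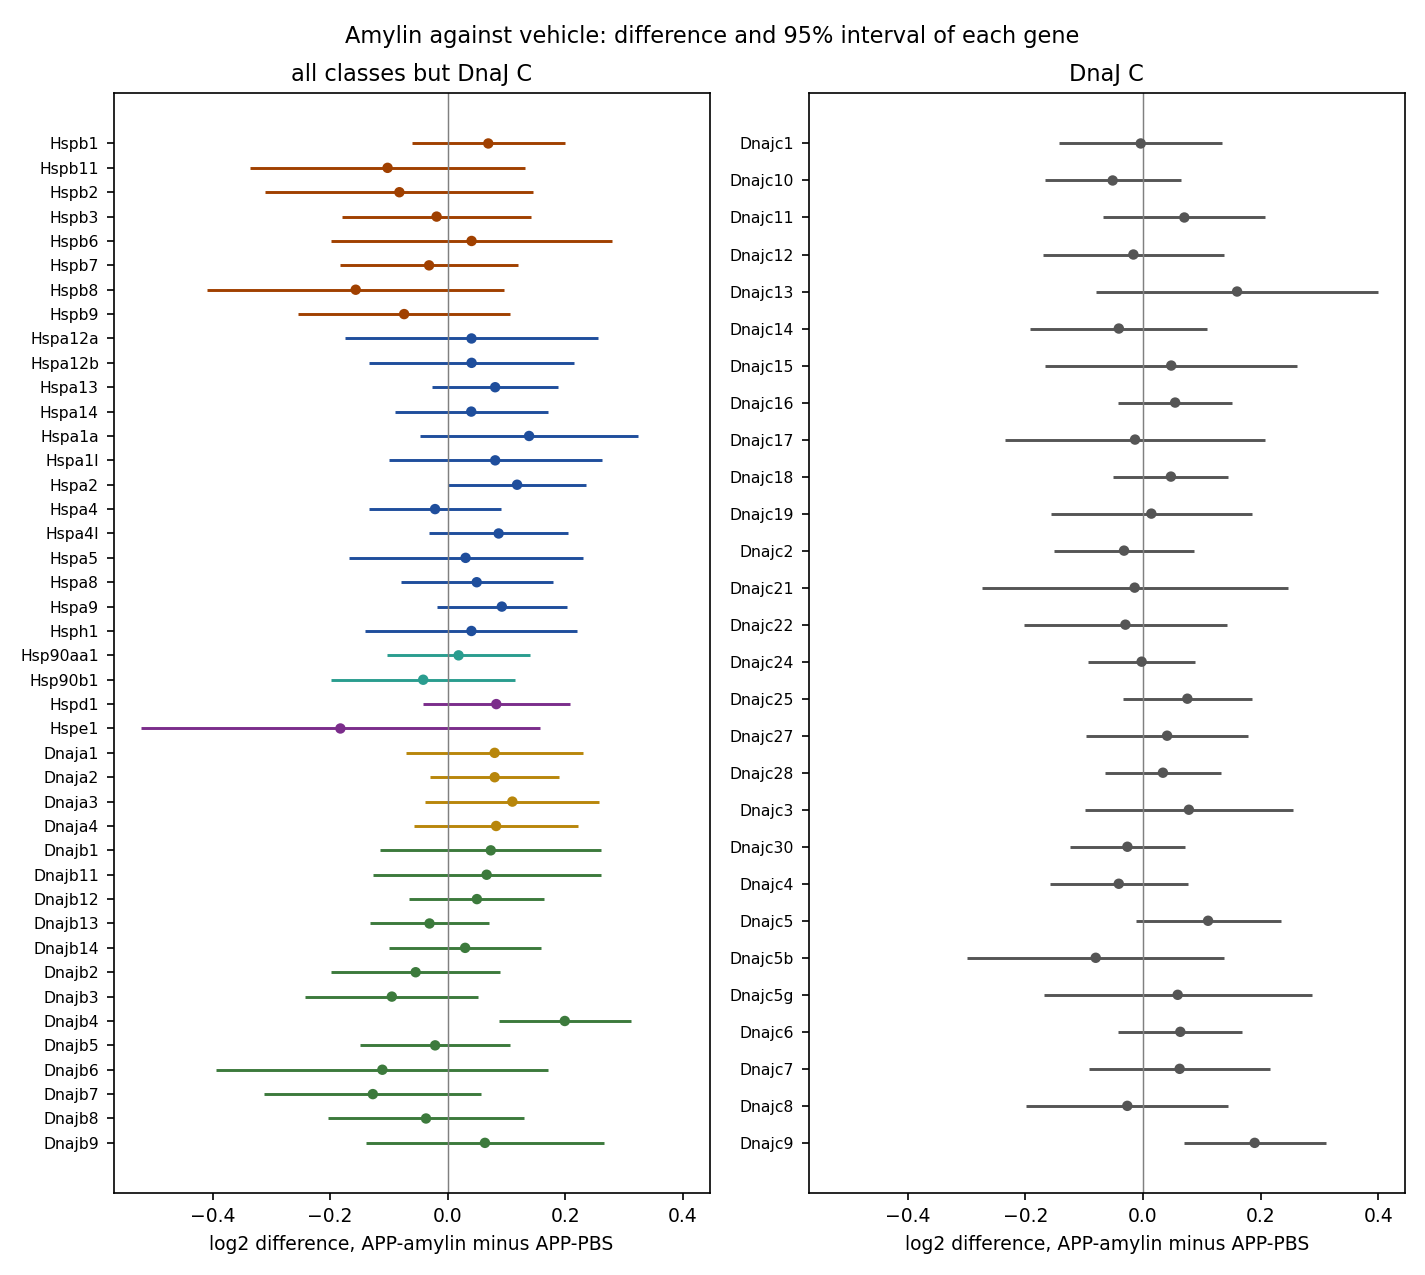
Log2 difference between APP-amylin and APP-PBS (x axis) with its 95% interval for each of the 70 chaperone genes (rows), DnaJ C genes at the right and all other classes at the left, coloured by class. The intervals of Dnajb4, Dnajc9 and Hspa2 lie above 0 before adjustment, and 47 of 70 intervals lie within 0.25 of 0.

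Dnajb4, a class B J protein closely related to Dnajb1, had the smallest p of the 70 genes. It had 9.17, 9.10 and 9.21 in APP-amylin, 8.91, 8.97 and 9.0 in APP-PBS, and 8.90, 8.87 and 8.91 in WT. All APP-amylin arrays lay above all arrays of both other groups. Its difference from APP-PBS was 0.20 ± 0.050 (adjusted p = 0.574). Dnajc9, a J protein that binds histones, had 7.55, 7.60 and 7.63 in APP-amylin, 7.46, 7.33 and 7.42 in APP-PBS, and 7.46, 7.37 and 7.36 in WT. Here too the APP-amylin arrays stood above the rest, with a difference from APP-PBS of 0.19 ± 0.054 (adjusted p = 0.647). Hspa2, an HSP70 that is abundant in testis and also made in brain, had 8.14, 8.06 and 7.98 in APP-amylin, 7.92, 7.93 and 7.98 in APP-PBS, and 7.95, 7.96 and 7.99 in WT. It differed from APP-PBS by 0.12 ± 0.052 with touching arrays (adjusted p = 0.720).

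By class, 12 of 13 HSP70 and HSP110 genes had a higher mean in APP-amylin than in APP-PBS, with a median of 0.049, when 10037 of all 19938 genes had a higher mean. All 4 DnaJ A genes did as well, between 0.080 and 0.11. Of these, Dnaja2, a cytosolic partner of HSP70, had 9.89, 9.83 and 9.82 in APP-amylin, 9.70, 9.81 and 9.80 in APP-PBS, and 9.77, 9.80 and 9.76 in WT. Its APP-amylin arrays lay above both other groups, and its difference from APP-PBS was 0.080 ± 0.049 (adjusted p = 0.785). Dnaja4, another HSP70 partner of the same class, had 8.09, 8.04 and 8.085 in APP-amylin, 7.88, 8.04 and 8.04 in APP-PBS, and 8.04, 8.06 and 7.91 in WT, and differed from APP-PBS by 0.082 ± 0.062 (adjusted p = 0.816). Of 8 small heat shock genes 2 had a higher mean (median -0.053), and Hspb8 had the lowest estimate at -0.16 ± 0.11 (adjusted p = 0.805). DnaJ B genes were split, 6 of 13 higher (median -0.021), as were DnaJ C genes, 15 of 28 higher (median 0.024). Among the class B genes, Dnajb7 was read at low intensity, with 2.94, 2.70 and 2.69 in APP-amylin, 2.80, 3.03 and 2.89 in APP-PBS, and 2.77, 2.91 and 2.80 in WT. These groups overlapped, and APP-amylin differed from APP-PBS by -0.13 ± 0.082 (adjusted p = 0.794). Hspa1a differed by 0.14 ± 0.083 (adjusted p = 0.783) and Dnajb1 by 0.073 ± 0.084 (adjusted p = 0.880). For the ER chaperones the estimates were 0.030 for Hspa5, -0.042 for Hsp90b1 and 0.063 for Dnajb9, all with intervals across 0. No marker list had a called gene in this comparison, in which 1 gene of 19938 passed. The mean of the oligodendrocyte markers per array nevertheless lay between 9.03 and 9.20 in APP-amylin and between 9.30 and 9.48 in APP-PBS, without overlap (median difference -0.19 over 9 genes). The microglial markers had a median difference of -0.24, with 4 of 12 at an unadjusted p under 0.05. The part of these markers in the chaperone values was not tested.

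The third comparison sets amylin-treated 5x FAD mice against PBS-treated wild type. In APP-amylin 1 of the 70 genes rose and 1 fell against WT, when 5.21% of all genes changed, 2.35% upward and 2.86% downward. Dnajb4 rose by 0.27 ± 0.050 on the log2 scale, or 1.21-fold (limma adjusted p = 0.0151), from the array values given above. Its difference in APP-PBS against WT was 0.071 ± 0.050 (adjusted p = 0.496). Hspa12a fell by 0.47 on the log2 scale (SE 0.096, limma adjusted p = 0.0231), so it was called low in both 5x FAD groups against the same WT arrays. Dnajb4 stayed past the threshold in all 9 alternative fits that kept every array of both groups, but not without WT replicate 1 (adjusted p = 0.0579), WT replicate 2 (0.0596) or APP-amylin replicate 3 (0.0536). Hspa12a stayed past it only without APP-amylin replicate 2 when an array was left out, and reached 0.0953 without WT replicate 1.

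Several further genes approached the threshold in APP-amylin against WT. Dnajc9 differed by 0.20 ± 0.054 (adjusted p = 0.0648). Hspa13, a microsomal HSP70 without the usual substrate-binding part, had 8.92, 8.88 and 8.89 in APP-amylin, 8.78, 8.88 and 8.78 in APP-PBS, and 8.70, 8.77 and 8.74 in WT. Its APP-amylin arrays lay above all WT arrays, with a difference of 0.16 ± 0.048 (adjusted p = 0.0947). Hspa14, the HSP70 of the ribosome-associated complex, had 7.72, 7.63 and 7.69 in APP-amylin, 7.60, 7.73 and 7.59 in APP-PBS, and 7.42, 7.54 and 7.53 in WT. It lay above WT in both 5x FAD groups, by 0.19 ± 0.058 in APP-amylin (adjusted p = 0.106) and by 0.15 ± 0.058 in APP-PBS (adjusted p = 0.177). Hspa4l and Dnajc6 differed from WT by -0.16 ± 0.053 (adjusted p = 0.137) and -0.12 ± 0.047 (adjusted p = 0.205), with no overlap for either. All 15 Dnajc13 probe sets had higher means in APP-amylin than in WT, between 0.14 and 0.36, 10 of them at an unadjusted p under 0.05 and none past the threshold over all probe sets (smallest adjusted p = 0.128). Of the 70 genes 14 had an unadjusted p under 0.05, when 19.2% of all genes did. Arrays did not overlap for 18 of the 70, 9 in each direction, when 23.1% of all genes did not overlap, 10.8% higher and 12.3% lower. In this comparison 11 of 12 microglial and 11 of 11 striatal markers rose, and 5 of 9 oligodendrocyte, 9 of 12 hippocampal and 10 of 13 thalamic markers fell.

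Regulators and partners outside the 70 genes were read from the same fit. None of 6 measured heat shock factors and their regulators changed in any comparison, and their differences between APP-PBS and WT lay between -0.043 and 0.035. Of 30 other co-chaperones of HSP70 and HSP90, 2 fell and 0 rose in APP-PBS against WT. Fkbp5, an HSP90 co-chaperone that dampens the glucocorticoid receptor, had 8.30, 8.35 and 8.29 in APP-amylin, 7.76, 7.80 and 7.70 in APP-PBS, and 8.26, 8.31 and 8.39 in WT. Its APP-PBS arrays stood apart from both other groups. Fkbp5 differed by -0.57 ± 0.052 in APP-PBS against WT (limma adjusted p = 0.000328). It was the 1 gene of 19938 called between APP-amylin and APP-PBS, at 0.56 ± 0.052 (limma adjusted p = 0.0233). These 2 comparisons share the APP-PBS arrays. In the fit of all 35556 probe sets, 0 were called between APP-amylin and APP-PBS. Nudcd3, an HSP90 co-chaperone for dynein, fell by 0.30 on the log2 scale in APP-PBS against WT (SE 0.068, adjusted p = 0.0252). Bag5, a nucleotide exchange factor of HSP70, had 8.02, 7.85 and 7.80 in APP-amylin, 7.61, 7.70 and 7.70 in APP-PBS, and 7.57, 7.63 and 7.59 in WT. It rose by 0.30 ± 0.063 in APP-amylin against WT (limma adjusted p = 0.0276), and its APP-amylin arrays lay above all others. The median of these 30 genes was -0.092 for APP-PBS against WT, 0.032 for APP-amylin against APP-PBS and -0.057 for APP-amylin against WT.

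Among the ER genes Atf4 also rose in APP-amylin against WT, by 0.33 ± 0.061 (limma adjusted p = 0.0149), with 8.54, 8.31 and 8.40 on the APP-amylin arrays. Of 14 genes of the cytosolic chaperonin TRiC and its partner prefoldin, the prefoldin subunit Pfdn5 rose in APP-PBS against WT by 0.23 ± 0.060 (adjusted p = 0.0478), and 0 changed in APP-amylin against APP-PBS or against WT.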

How the data were processed

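Affymetrix mouse gene arrays measured the total RNA of 9 brain samples. The deposited values are log2 intensities of 35556 probe sets, for which the submitters' processing notes name RMA and the oligo package; versions are not given in the sources used here. RMA corrects background, forces equal quantiles on the arrays and merges the probes of a set, so a small shift of all genes is removed. Probes that match several loci add their signals. Of the probe sets, 21789 name 1 gene symbol, 1621 several and 12146 none by the platform annotation. The Entrez IDs of 21698 matched RefSeq genes (GRCm38.p6), which changed 0 symbols. The probe set with the highest mean was taken for 999 genes with more than 1, which left 19938 genes with no filter on low signal, so all 70 chaperone genes were tested. Of these, 8 had more than 1 probe set, and 10 probe sets that name a chaperone with another gene were read apart.

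The 3 contrasts came from 1 fit of 9 arrays with limma 3.58.1 (R 4.3.3, with version 1.17.8 of data.table), moderated by an untrended empirical Bayes prior with 3.53 degrees of freedom beside 6 residual ones, adjusted by Benjamini-Hochberg over all genes. Intervals are 95% intervals of that fit. The fit was tested on simulated data. Joins were done in Python 3.11.15 with pandas 2.3.3. The members, the related gene lists and the marker lists were chosen with earlier results of these data known, and classes and lists are described by counts and medians without a test. Array values are given for genes called, for the 2 genes of each class with the smallest p in each comparison, and for genes fixed by name; Hspa14 was added to them after its values were seen. Promoters are those of RefSeq (57 of 70 genes matched by Entrez ID), and a motif match is a description, not a site. Alternatives were a repeated quantile normalization, centring of arrays, leaving out the lowest 25% or 50% of genes, array weights, a trended and robust prior, only the 2 groups of a comparison, the replicate number as a block, averaging the probe sets of each gene, leaving out each array, and a threshold of 0.1.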

Additional observations from a re-analysis of the deposited data

How the results depend on the processing

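For APP-PBS against WT, 3 chaperone genes were called in the reported fit, 1 with the quantile normalization repeated, 5 with array weights, a trended and robust prior or the lowest 25% or 50% of genes left out, 6 at an adjusted p under 0.1, and between 0 and 2 when 1 array was left out. For APP-amylin against APP-PBS the count was 0 under every alternative. For APP-amylin against WT it was 2, 4 with the lowest 50% of genes left out or at an adjusted p under 0.1, and between 0 and 2 without 1 array. Over all genes, the calls for APP-PBS against WT lay between 863 and 1306 with 1 array left out, and for APP-amylin against WT between 447 and 911, with 1723 at an adjusted p under 0.1. The 1 gene called between APP-amylin and APP-PBS was not called with only the 2 groups compared (0 genes) or with the replicate block (0 genes), and leaving out 1 array gave between 0 and 7 genes. With the replicate block 2 chaperone genes were called between APP-PBS and WT, Dnajc6 losing its call (adjusted p = 0.0750). Same-numbered arrays of APP-PBS and WT had deviations that correlated at 0.0937, 0.1834 and 0.0645 over genes, and not every pair in any comparison passed 0.1, so the numbers were not taken to pair the samples; all 6 arrays of APP-PBS and WT correlated best with their own number, against 4 of 6 for APP-amylin and APP-PBS and 2 of 6 for APP-amylin and WT, a hint from the data and not from the design.

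Class medians are small and move by similar amounts with the processing. For APP-PBS against WT the median of all 70 genes turned to 0.011 with the quantile normalization repeated, that of HSP70 and HSP110 became -0.0062 and that of HSP90 0.039, while with the lowest 50% of genes left out the small heat shock median was 0.21 and the DnaJ B median -0.032. The DnaJ C median lay between -0.011 and 0.0037 with 1 array left out. For APP-amylin against APP-PBS the median of all 70 was 0.017 with the quantile normalization repeated, 0.026 with array weights and between 0.016 and 0.042 without 1 array. The small heat shock median was 0.041 with the lowest 50% left out and between -0.080 and 0.027 without 1 array. The DnaJ B median was 0.040 and 0.056 with the lowest 25% and 50% left out, and the DnaJ C median 0.015 with the normalization repeated, 0.034 with the lowest 25% left out, 0.015 with array weights and between 0.0033 and 0.036 without 1 array. For APP-amylin against WT the median of all 70 was 0.016 with that normalization, 0.018 with arrays centred, 0.013 and 0.028 with the lowest 25% and 50% left out, 0.023 with array weights, 0.012 with the mean of all probe sets and between -0.0042 and 0.016 without 1 array. The small heat shock median was 0.11 with the lowest 50% left out, 0.073 with array weights and between -0.0086 and 0.093 without 1 array. The DnaJ B median was -0.010 under either filter on low genes, -0.069 with array weights and between -0.081 and -0.013 without 1 array, and the DnaJ C median 0.031 with arrays centred, 0.032 with the lowest 25% left out and between 0.015 and 0.038 without 1 array. The cause of these shifts was not tested, except that leaving out low genes leaves fewer genes, 63 and 54 of the 70.

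With the mean of all probe sets the difference of Hspa8 between APP-PBS and WT was -0.24. Over the 31 genes chosen by rule for array values, 43 of 1476 values compared changed sign, and 0 of these had been called. With 3 arrays a group the spread of each gene set what passed: between APP-PBS and WT a difference of -0.18 was called for Dnajc6, while -0.31 for Dnajb1 and 0.40 for Dnajb6 were not.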
